A study of Homo sapiens with 4 samples.

Results

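The genes described here are CRYM and 8 genes of the thyroid hormone receptor axis (THRA, THRB, DIO1, DIO2, DIO3, KLF9, NCOR1 and NCOA1), 9 of the 36337 gene names on the array. Every probe whose gene name in the scanner files was exactly one of these 9 was taken, which gave 17 of 50599 probes. CRYM was chosen from its increase in the comparison reported here, so its values are a description and carry no test, and the other 8 genes were chosen for their role in thyroid hormone action. The RNA came from GIST-T1, an established cell line from a human gastrointestinal stromal tumor (GIST). Cells (3000000 per transfection) were electroporated with 100 pmol of a mirVana mimic of miR-34a, a synthetic copy of the miRNA, or with mirVana miRNA mimic Negative Control #1, and total RNA was extracted after 48 h. Each condition had 2 arrays. The labels do not say whether replicates came from separate cultures, so p-values measure only the spread between these arrays, which may be technical. Cells that received no RNA were not analysed here, so each value compares the mimic with another transfected RNA.

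Thyroid hormone enters cells through membrane transporters and is activated or destroyed by deiodinases: DIO2 and DIO1 make the active hormone T3 from its precursor, and DIO3 inactivates both. T3 binds the nuclear receptors encoded by THRA and THRB, which sit on DNA with RXR partners. Without hormone these receptors hold corepressors such as NCOR1, and with hormone they exchange them for coactivators such as NCOA1. KLF9, a transcription factor, is a classical T3-induced gene. CRYM encodes mu-crystallin, a lens crystallin in marsupials that in other tissues binds T3 in the cytoplasm and also acts as a ketimine reductase.

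The mature strand that the mimic supplies is printed here because its seed, bases 2 to 8 and in capitals, decides which mRNAs it can pair with. In RefSeq (GRCh38.p14) it lies at chr1:9151735-9151756 on the minus strand.
hsa-miR-34a-5p: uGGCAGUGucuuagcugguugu

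The 7-mer in an mRNA that matches this seed, CACTGCC, was found in 0 of the 17 probe sequences of these genes, read on the probe strand, and in 220 (0.435%) of all 50599 probes. A probe covers 60 bases of a transcript, and no match says only that these letters are not in those 60 bases.

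The signal of CRYM was higher in both miR-34a mimic samples than in both negative controls, by 1.94 log2 units. The receptors, the corepressor NCOR1, the coactivator NCOA1 and KLF9 differed by 0.25 or less in either direction on all but 1 probe, and DIO3 by 0.50 and 0.47 on its probes. A probe counts as detected on an array where the scanner software called it well above background, and probes detected on both arrays of either condition were compared. Of the genes, 7 had such a probe, and 2, DIO1 and DIO2, had none. This left 12 of the 17 probes for comparison, 11 of them detected on all 4 arrays. Levels are log2 processed signals relative to the 75th percentile of the array, so 0 is the level that 75% of an array's probes lie below, and each difference is the miR-34a mimic mean minus the negative control mean on that scale. Levels were not compared between probes, which differ in brightness for reasons other than RNA amount. The arrays read RNA of whole cultures, where fewer cells of a kind and less RNA per cell cannot be told apart.

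**Figure D1:**
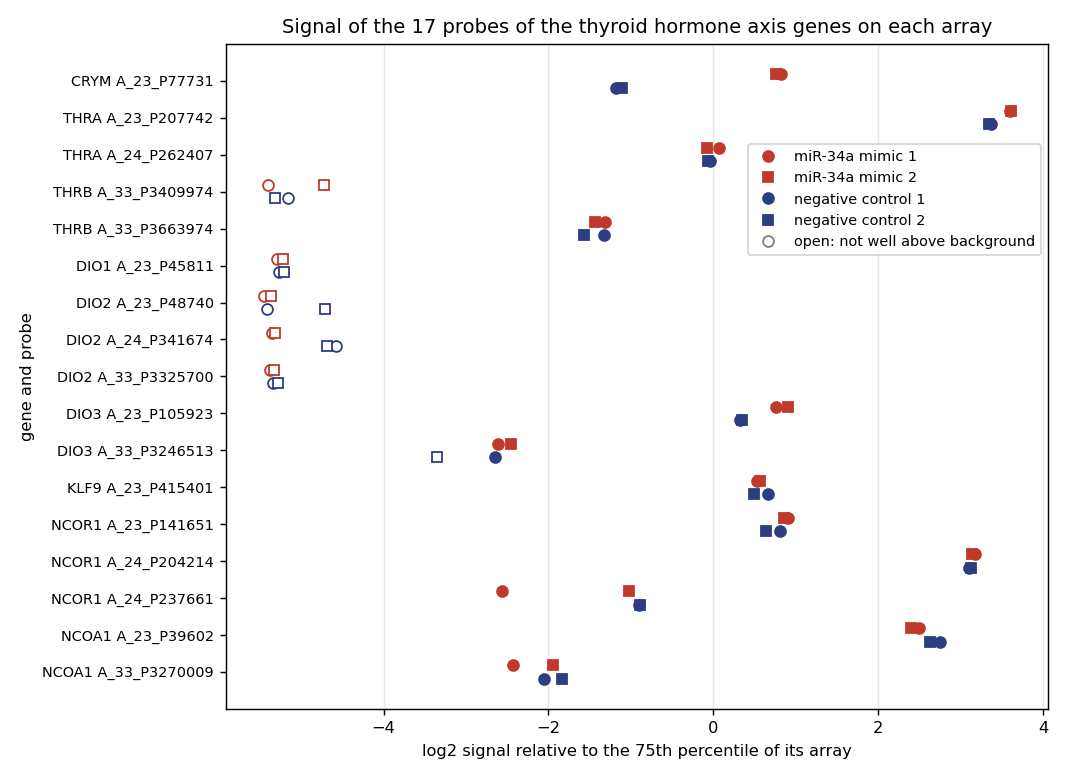
Log2 signal relative to the 75th percentile of its array (horizontal axis) of the 17 probes of the 9 genes (vertical axis), with 1 point for each of the 4 arrays and open points where the probe was not detected. The CRYM points of the conditions are far apart, the 5 probes with only open points belong to DIO1, DIO2 and THRB, and the condition means of every other tested probe lie within 0.90 of each other.

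Detection ranged from 41.8% to 45.2% of probes over the 4 arrays, 0 spots were saturated, and all arrays lay on 1 slide. The replicates differed with an SD of 0.34 log2 units in the miR-34a mimic and 0.29 in the negative control over the 21474 probes compared. No exact two-sided permutation test of 2 arrays against 2 can reach a p below 0.33, so adjusted p-values are from limma over all 21474 probes, where the smallest was 0.0948. In this comparison 2.11% of all probes were higher and 4.8% were lower by more than 1.5-fold, and 0% reached an adjusted p under 0.05 by limma, although 5222 probes had an unadjusted p under 0.05. Of the calls past 1.5-fold, 30.5% were increases, and after quantile normalization 47.5% were. All 6 of the GIST markers looked up (KIT, ANO1, ETV1, CD34, PRKCQ and PDGFRA) were detected, and of 5 thyroid follicular cell markers looked up, TSHR, PAX8 and NKX2-1 among them, only TG, the hormone precursor thyroglobulin, was detected. The TG probe was dim, with -2.44 and -2.48 in the miR-34a mimic and -2.39 and -2.91 in the negative control. The lowest detected signals of the arrays were -3.30 to -3.20. No probe of CDH1 or PECAM1, which mark epithelium and endothelium, was detected. Among the others, the epithelial markers EPCAM, KRT8 and KRT18 each had a probe detected on all 4 arrays. The endothelial marker CDH5 was detected on 2. The detection rule left 2 of 4 smooth muscle, 3 of 4 epithelial, 1 of 3 endothelial and 3 of 4 leukocyte markers tested.

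CRYM was measured by 1 probe (A_23_P77731, transcript NM_001888), which the array's annotation places at chr16:21269963-21270022 of hg19 on the minus strand. Its levels were 0.83 and 0.76 on miR-34a mimic arrays 1 and 2 and -1.19 and -1.11 on negative control arrays 1 and 2. The groups did not overlap, and the gap between them was many times the distance between arrays of one condition. In processed signal the same spots read 257 and 248 against 64.7 and 65.9. The log2 difference was 1.94 (SE 0.063, n = 2 per condition), a 3.85-fold higher signal, and the mean SD between replicates was 0.047. It was detected on all 4 arrays, and the raw spot was 6.83 and 6.65 times its local background in the miR-34a mimic and 3.01 and 2.82 times in the negative control.

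With normexp background correction of the raw signals, which also adds an offset of 50, the CRYM log2 difference was 1.12, or 2.18-fold, and it ranked 5 of 21474 probes by increase. With the other scalings and the authors' own table of processed values it lay between 1.94 and 1.96, and leaving out each array in turn gave 1.91 to 1.98. No second probe reads CRYM on this array, so the change could not be checked on another stretch of the transcript.

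CRYM ranked 9 of 21474 probes by its fitted increase and 2 of the 20068 probes detected on all 4 arrays. Of the 8 probes with a larger fitted increase, 7 were detected on neither negative control array, so the size of their increase is not known. Among the 5 highest were LOC400456 (1.48-fold higher), LOC344887 (1.68-fold), CGB (2.31-fold) and LAMA3 (1.58-fold). Each of these values sets the miR-34a mimic mean against the lowest signal detected on the control arrays. Undetected probes can lie above that signal, as an SLC16A10 probe did on negative control 2 (-2.83 against -3.22), so these values are no lower bounds. The increases have no order relative to CRYM. The one probe detected on all 4 arrays with a larger fitted increase, A_33_P3353906, has no gene name, and its log2 difference of 2.03 (SE 1.48) came from 1 array, with 0.05 and 3.99 in the miR-34a mimic and -0.16 and 0.14 in the negative control. Below CRYM in the same set were KRT85, DUX4 and ENST00000369123, with log2 differences of 1.65, 1.55 and 1.42 and standard errors of 1.24, 1.52 and 0.80. For each of these a single miR-34a mimic array held the increase. SPEF1, the next, had -0.44 and -0.35 against -1.96 and -1.64, a log2 difference of 1.40 (SE 0.134).

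**Figure D2:**
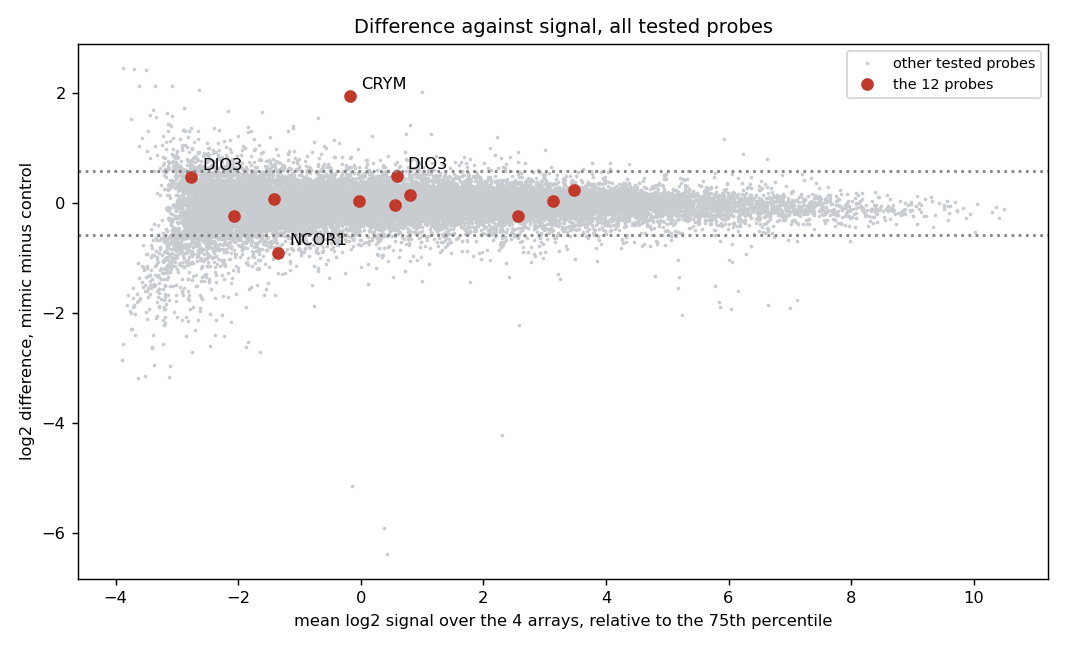
Log2 difference, miR-34a mimic minus negative control (vertical axis), against the mean log2 signal of the 4 arrays (horizontal axis) for the tested probes, with the 12 probes of these genes in red and dotted lines at 1.5-fold. CRYM stands at a middle signal with a difference of 1.94, apart from nearly all probes of like brightness, and a single NCOR1 probe lies below the lower line.

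The genes whose 4 levels, centred on their own mean, lay nearest to CRYM were RSPH1 (Euclidean distance 0.29 over the 4 arrays), RABL2A (0.40), CGB (0.50), AKR1B10 (0.51) and LOC400456 (0.52). None of these was detected on a negative control array. Against the lowest signal detected on the control arrays, RSPH1, RABL2A and AKR1B10 were 2.29-fold, 1.58-fold and 1.90-fold higher, and these values too are no lower bounds. With 4 arrays in a contrast that CRYM itself was chosen on, likeness of this kind is shared by any probe with a difference of about that size and little spread between replicates.

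No tested gene near CRYM had a difference of that size. Within 500 kb of the CRYM probe lay 24 other probes with 20 gene names, of which 10 probes with 9 names were tested. None was higher by more than 1.5-fold, where 2.11% of all probes were. The fitted difference of 1, OTOA, was past 1.5-fold lower, where 4.8% of all probes were. No miR-34a mimic array detected OTOA, so the size of its decrease is not known. Against the lowest signal detected on the mimic arrays it was 1.15-fold lower, which is no lower bound. With 10 probes and shares this small, these counts do not tell the region apart from the whole array. The median log2 difference was 0.05, and the highest was 0.33 (LOC81691). The nearest tested gene, TMEM159, had 0.33 and 0.37 in the miR-34a mimic against 0.29 and 0.28 in the negative control, a log2 difference of 0.07 (SE 0.053, adjusted p = 0.487 by limma). LYRM1 and METTL9 differed by 0.06 and 0.04, ENST00000330588 by 0.08, ACSM3 by -0.26, and DCUN1D3 by -0.31 (SE 0.055, adjusted p = 0.11 by limma). One ERI2 probe differed by 0.32 and another by -0.04. CRYM-AS1, the antisense transcript of CRYM, was not detected on any array, nor were probes of ANKS4B, DNAH3, NPIPL3, LOC100506372, LOC100271836, IGSF6, XLOC_011893, XLOC_l2_005150 and XLOC_l2_005418, while ZP2 was detected on 1 array. Of a list of 16 symbols of neighbours and antisense genes, 12 matched a gene name of the array exactly and 6 were tested, with a median of 0.05. A gene that the array gives under another name was not counted.

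**Figure D3:**
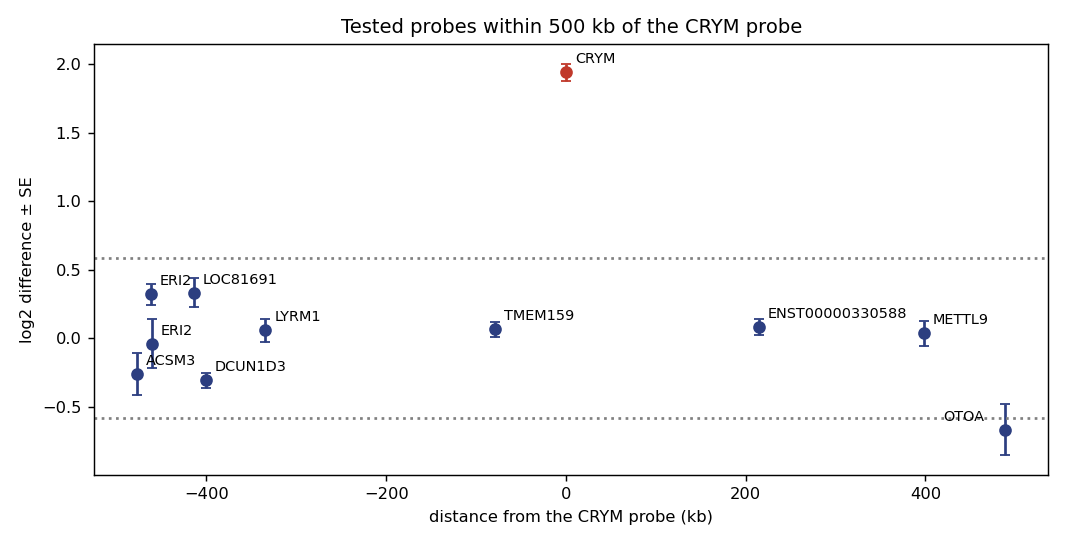
Log2 difference with its SE, miR-34a mimic minus negative control (vertical axis), against the distance in kb from the CRYM probe (horizontal axis) for the tested probes within 500 kb, with dotted lines at 1.5-fold. CRYM is at 1.94 and the neighbours lie between -0.67 and 0.33.

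Mu-crystallin is unrelated in sequence to the common alpha, beta and gamma crystallins of the lens. Of 17 other crystallin genes looked up, 8 were tested. The median log2 difference of their brightest probes was 0.19, against -0.01 over all 16192 genes tested. CRYZ, which encodes a quinone reductase, was the only one with a probe past 1.5-fold, where 2.11% of all probes were higher and 4.8% lower. That probe had -0.22 and -0.13 in the miR-34a mimic against -0.87 and -0.72 in the negative control, a log2 difference of 0.62 (SE 0.083, adjusted p = 0.0954 by limma). Its other probe differed by 0.40 (SE 0.087, adjusted p = 0.129 by limma). On both CRYZ probes both miR-34a mimic arrays lay above both negative controls, as they did on 30.4% of all probes. The brightest of the list, CRYL1, a sugar dehydrogenase, differed by 0.21 (SE 0.068, adjusted p = 0.196 by limma).

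Of the 11 tested probes of the other genes, none reached an adjusted p under 0.05 by limma. Without adjustment 3 had a p under 0.05, where 24.3% of all probes did, and with the variance modeled along the signal 2 passed, both higher, where 3.81% of all probes were called higher. Counted with CRYM, 1 of the 12 probes was higher and 1 lower by more than 1.5-fold, where 2.11% and 4.8% of all probes were. The higher probe is that of CRYM, which was chosen for its increase. Both miR-34a mimic arrays lay above both negative control arrays on 5 of the 11 probes, where 30.4% of all probes did so, and below them on 2, where 30.1% did. Their median log2 difference was 0.05, against -0.01 over all 21474 probes.

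THRA encodes the receptor TR-alpha. Its brighter probe (A_23_P207742, chr17:38250008-38250067 of hg19, plus strand) had levels of 3.60 and 3.61 in the miR-34a mimic and 3.37 and 3.34 in the negative control. The conditions did not overlap, and the log2 difference was 0.25 (SE 0.053, adjusted p = 0.129 by limma), or 1.19-fold higher. With the variance trend the adjusted p by limma was 0.0337, and over all alternatives it ran from 0.0337 to 0.389. The second THRA probe (A_24_P262407, chr17:38245528-38245587, plus strand) had 0.06 and -0.08 against -0.04 and -0.07. These values overlapped, with a log2 difference of 0.05 and a 95% interval from -0.17 to 0.27 (adjusted p = 0.723 by limma). The interval of the brighter probe was 0.09 to 0.40, and a difference between the probes was not tested. The annotation names a different transcript for each, NM_003250 and NM_199334, and which isoforms each probe reads was not determined.

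THRB encodes TR-beta. One THRB probe (A_33_P3663974, chr3:24164478-24164537 of hg19, minus strand) had -1.32 and -1.44 in the miR-34a mimic against -1.33 and -1.56 in the negative control. The conditions overlapped, and the log2 difference was 0.07 with a 95% interval from -0.25 to 0.39 (adjusted p = 0.709 by limma). The other THRB probe was not detected on any array. NR1D1, whose transcript overlaps THRA on the opposite strand, differed by -0.04 (SE 0.184, adjusted p = 0.9 by limma).

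The detected THRA and THRB probes are printed because they read related stretches of the receptors. In the best ungapped match, 38 of 50 overlapping bases (76%) are identical, and the identical bases are in capitals. Whether either probe binds the other receptor's transcript was not tested.
THRA A_24_P262407: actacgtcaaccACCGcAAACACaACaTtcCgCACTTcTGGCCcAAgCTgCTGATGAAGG
THRB A_33_P3663974: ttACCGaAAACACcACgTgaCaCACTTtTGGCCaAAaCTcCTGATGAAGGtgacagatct

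Among the deiodinases only DIO3, the enzyme that inactivates thyroid hormone, was detected. Its brighter probe (A_23_P105923, chr14:102029474-102029533 of hg19, plus strand) had levels of 0.76 and 0.90 in the miR-34a mimic and 0.32 and 0.35 in the negative control. The conditions did not overlap, and the log2 difference was 0.50 (SE 0.074, 95% interval 0.28 to 0.71), or 1.41-fold higher, with an adjusted p of 0.0974 by limma. With the variance trend the adjusted p was 0.031 by limma, and over all alternatives it ran from 0.031 to 0.357.

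The second DIO3 probe starts 872 bases upstream of the first on the same strand and is printed because both probes of the gene differed in the same direction.
DIO3 A_33_P3246513 (chr14:102028602-102028661 of hg19): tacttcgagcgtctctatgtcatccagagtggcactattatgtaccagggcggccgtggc

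This probe was dim, with -2.61 and -2.45 in the miR-34a mimic and -2.64 and -3.35 in the negative control, and was not detected on negative control 2. Its log2 difference was 0.47 (SE 0.275, adjusted p = 0.366 by limma), with an interval from -0.33 to 1.27. The low value of negative control 2 carried most of it. Without that array the log2 difference was 0.11, and without negative control 1 it was 0.82.

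DIO3OS, a noncoding transcript from the opposite strand next to DIO3, was looked up after the values of DIO3 were seen. Its probe had -0.70 and -0.62 in the miR-34a mimic against -1.35 and -1.59 in the negative control, a log2 difference of 0.82 (SE 0.107, adjusted p = 0.0954 by limma), detected on all 4 arrays. DLK1 and MEG3, the other imprinted genes of the region with probes looked up in the same way, had no positive difference of that size. The DLK1 probes differed by -0.55 and -0.34 (adjusted p = 0.142 and 0.15 by limma), and the 4 MEG3 probes by 0.01, 0.16, 0.16 and -0.05.

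The activating deiodinases were not detected. The DIO1 probe and the 3 DIO2 probes were not detected on any array, with processed signals between 3.31 and 6.15, so no difference is given for them.

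NCOR1, the corepressor that unliganded receptors recruit, had 3 probes. A_24_P204214 had 3.18 and 3.14 in the miR-34a mimic against 3.10 and 3.13 in the negative control, a log2 difference of 0.04 with a 95% interval from -0.12 to 0.20 (adjusted p = 0.645 by limma). A_23_P141651 (chr17:15942824-15942883 of hg19, minus strand) had 0.91 and 0.86 against 0.81 and 0.64, a difference of 0.16 (SE 0.084, adjusted p = 0.334 by limma). On both of these probes the miR-34a mimic lay slightly above the negative control. The third, A_24_P237661, had -2.56 and -1.02 in the miR-34a mimic against -0.90 and -0.88 in the negative control. It was 1.86-fold lower, with a log2 difference of -0.90 (SE 0.579, adjusted p = 0.399 by limma), and is the 1 probe of these genes that was lower by more than 1.5-fold. That value rested on miR-34a mimic array 1, and without it the log2 difference was -0.13. Its 95% interval, from -2.58 to 0.79, contains the differences of both other probes.

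The NCOR1 probes A_24_P204214 and A_24_P237661 are printed because the annotation gives them 18 shared positions, in capitals, that differ at 1 base. Counted from 1 at the first shared base, with the base of A_24_P204214 first, the difference is C12T.
NCOR1 A_24_P204214 (chr17:16068377-16068436 of hg19, minus strand): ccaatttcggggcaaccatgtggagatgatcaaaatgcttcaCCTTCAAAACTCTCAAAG
NCOR1 A_24_P237661 (chr17:16068335-16068394 of hg19, minus strand): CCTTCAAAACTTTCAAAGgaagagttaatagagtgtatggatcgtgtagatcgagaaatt

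NCOR1 has pseudogenes in the RefSeq gene table, and whether the NCOR1 probes also bind their transcripts was not tested.

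NCOA1, a steroid receptor coactivator that liganded receptors recruit, had lower means in the miR-34a mimic on both probes, without reaching the threshold on either. A_23_P39602 (chr2:24980905-24980964 of hg19, plus strand) had 2.49 and 2.39 against 2.74 and 2.62 in the negative control. The conditions did not overlap, and the log2 difference was -0.24 (SE 0.078, adjusted p = 0.193 by limma), or 1.18-fold. A_33_P3270009 had -2.43 and -1.94 against -2.05 and -1.84, which overlapped, with a log2 difference of -0.24 (SE 0.204, adjusted p = 0.507 by limma) that was 0.01 without miR-34a mimic array 1.

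KLF9, the T3-induced transcription factor, did not differ beyond the spread. Its probe (A_23_P415401, chr9:72999837-72999896 of hg19, minus strand) had 0.53 and 0.57 in the miR-34a mimic and 0.66 and 0.50 in the negative control. The log2 difference was -0.03 with a 95% interval from -0.26 to 0.21 (adjusted p = 0.843 by limma).

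**Figure D4:**
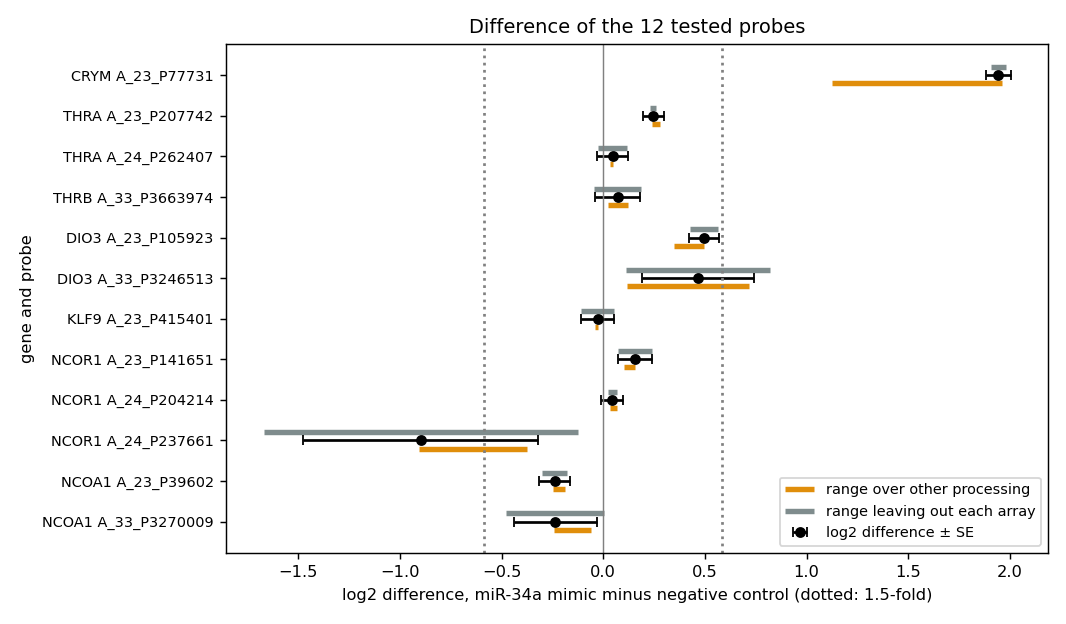
Log2 difference, miR-34a mimic minus negative control, with its SE (black) for the 12 tested probes, the range over other ways of processing (orange) and the range with each array left out (grey), with dotted lines at 1.5-fold. The CRYM range lies past 1.5-fold throughout, and the grey range of NCOR1 A_24_P237661 runs from -1.67 to -0.13.

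Beyond these genes, 46 other genes of thyroid hormone transport and action were looked up in 7 lists. All 46 were on the array and 28 were tested. Of the 28, each counted on its brightest tested probe, 0 were higher and 1 was lower by more than 1.5-fold, where 2.11% and 4.8% of all probes were. These shares include dim probes, and shares over the brightest probe of every gene were not taken. By limma 0 reached an adjusted p under 0.05. With the variance trend 3, all lower, were under it, where 3.6% of all probes were called lower. The median of the brightest probes of the 28 genes was -0.01, the same to 2 decimals as over all 16192 genes tested.

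Of 7 thyroid hormone transporters, 4 were tested. SLCO4A1, an organic anion transporter that carries T3, was the gene past 1.5-fold. It had -0.21 and -0.04 in the miR-34a mimic against 0.81 and 0.82 in the negative control, a log2 difference of -0.94 (SE 0.083, adjusted p = 0.0948 by limma, 0.0123 with the variance trend), or 1.92-fold lower. The conditions were far apart on this probe, which was detected on all 4 arrays. The heterodimeric amino acid transporter chains SLC3A2, the brightest of the list, and SLC7A5 differed by 0.12 and -0.03.

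Among 3 RXR genes, 2 were tested, and the brighter, RXRA, had 3.99 and 4.10 against 3.83 and 3.84, a log2 difference of 0.21 (SE 0.066, adjusted p = 0.186 by limma). All 5 other genes of the corepressor complex were tested and lay between -0.04 and 0.05 on their brightest probes.

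All 8 other coactivators were tested, with differences from -0.46 to 0.31. The brightest, the acetyltransferase KAT2B, had 3.67 and 3.69 against 4.03 and 4.03, a log2 difference of -0.36 (SE 0.052, adjusted p = 0.0966 by limma, 0.0157 with the variance trend). NCOA3 was at the upper end with 0.31 (SE 0.055, adjusted p = 0.109 by limma) and CREBBP at the lower with -0.46 (SE 0.255, adjusted p = 0.341 by limma), where miR-34a mimic array 2 at 0.66 stood below the other arrays at 1.32 to 1.51.

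Of 12 genes known to respond to thyroid hormone, 8 were tested, with a median log2 difference of -0.01 and a range from -0.50 to 0.30. ME1, malic enzyme, was highest with 0.30 (SE 0.089, adjusted p = 0.177 by limma). UCP3, a mitochondrial uncoupling protein, had 0.99 and 1.00 against 1.41 and 1.32, a difference of -0.37 (SE 0.062, adjusted p = 0.104 by limma, 0.0362 with the variance trend). BCL3, the brightest of the list, was lowest with -0.50 (SE 0.205, adjusted p = 0.251 by limma), with 3.71 and 3.19 against 3.91 and 3.99. Without miR-34a mimic array 1, BCL3 and CREBBP also passed 1.5-fold, which gave 3 lower genes in place of 1.

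Of the 3 serum carriers TTR, SERPINA7 and ALB none was tested, and of the 8 genes of hormone synthesis and TSH signaling only TG was, with a log2 difference of 0.19 (SE 0.202, adjusted p = 0.58 by limma).

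**Figure D5:**
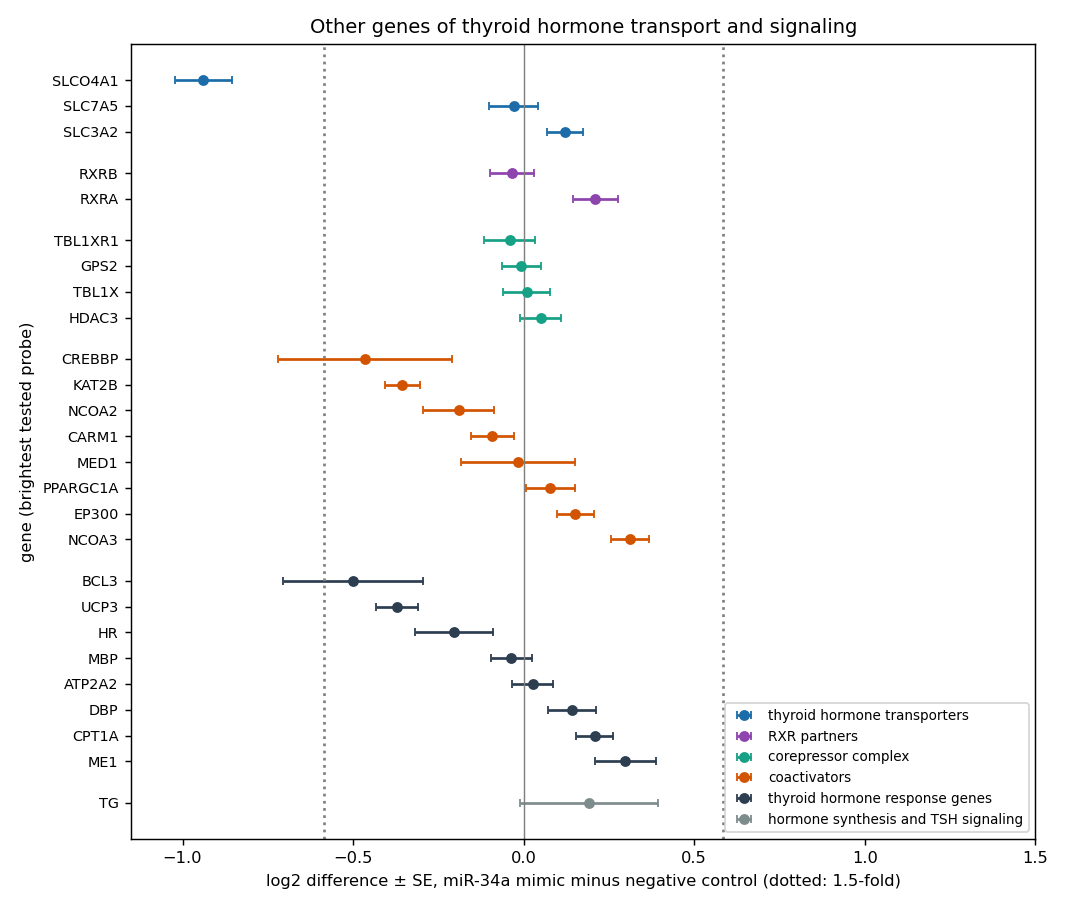
Log2 difference with its SE, miR-34a mimic minus negative control (horizontal axis), of the brightest tested probe of 26 other genes of the axis (vertical axis), colored by list, with dotted lines at 1.5-fold. SLCO4A1 at -0.94 is the only gene drawn past a dotted line.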

How the data were processed

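Per the file headers, Agilent Feature Extraction 10.7.3.1 made the deposited spot intensity values of each one-color array, with background and spatial trend removed but no scaling between arrays, and the authors' combined intensity data lay within 0.5% of them. Control spots and outlier-flagged spots (293 to 424 of 58717) were dropped, spots of a probe were averaged, and the log2 intensity was shifted by the array's 75th percentile. Probes called well above background by the scanner software on both replicates of either condition were tested with limma 3.58.1 in R 4.3.3, with version 1.17.8 of the data.table package and Benjamini-Hochberg adjustment over all of them. The calculation was tested on simulated data. The number of arrays limits the precision.

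Names and positions (hg19) were taken from the array annotation, and 12 of 13 transcript accessions of these genes' probes were found in RefSeq (GRCh38.p14) under the same symbol. The genes, the lists and the tests were chosen with earlier results of these data known. The lists were thyroid hormone transporters, serum carriers, RXR partners, the corepressor complex, coactivators, response genes, hormone synthesis and TSH signaling, NR1D1, CRYM neighbours, other crystallins, and markers of GIST, smooth muscle, epithelial, thyroid follicular, endothelial and leukocyte cells. Named were every probe of the 9 genes, genes of the lists that act in thyroid hormone biology, crystallins included, with a probe past 1.5-fold and the brightest of each list, genes within 500 kb of CRYM, and the 5 genes nearest to CRYM and with the largest increases. Other list members at the end of a range, and DIO3OS, DLK1 and MEG3, were named after their values were seen, and some genes that this rule names are not reported here. Alternatives were normexp (offset 50), quantile normalization, the percentile over detected probes, no filter, probes detected on all 4 arrays, the authors' combined data, a block for the replicate number, a variance trend, the methods' t-test and leaving out each array.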

Additional observations from a re-analysis of the deposited data

How the results depend on the processing

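The CRYM log2 difference of 1.94 was 1.12 with normexp background correction. It was 1.94 to 1.96 with the other scalings and the authors' combined data, and 1.91 to 1.98 when each array was left out. Both ranges lay within the spread between replicates. The filters, the replicate block, the variance trend and the t-test leave a difference between condition means fixed, so they are no check of it. Over the other 11 probes, 138 of 142 values kept their direction, and those under these fixed settings could not turn. Those that turned did so with 1 array left out: THRA A_24_P262407 (-0.027 without miR-34a mimic replicate 1, to 0.12), NCOA1 A_33_P3270009 (0.0055 without miR-34a mimic replicate 1, to -0.48), KLF9 (0.052 without negative control replicate 1, to -0.11) and THRB A_33_P3663974 (-0.046 without negative control replicate 2, to 0.19). The adjusted p passed 0.05 for 2 of the 142, THRA and DIO3 with the variance trend, so that 2 probes of these genes were called in place of 0.

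The count of probes of these genes higher by more than 1.5-fold (1) was 2 with quantile normalization, where DIO3 A_33_P3246513 was added (1.64-fold, adjusted p = 0.37 by limma), and 1 to 2 with each array left out. The count lower (1) was 0 with normexp, 2 with no filter, where an undetected DIO2 probe was added, and 0 to 1 with each array left out. Of the pathway genes, 7 were lower with no filter, 1 to 3 with each array left out, and 2 and 3 had an adjusted p under 0.05 with normexp and the variance trend.

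Over all probes, the counts higher and lower (453 and 1030) were 68 and 185 with normexp, 2070 and 6823 with no filter, 285 and 512 with probes detected on all 4 arrays, and 702 and 775 with quantile normalization. Normexp gave 877 probes and the variance trend 1591 with an adjusted p under 0.05 by limma. The methods' t-test called 2 of the 11 probes and 4202 of all probes at its unadjusted threshold, and 0 and 1 after Benjamini-Hochberg adjustment. The cause of these changes was not tested. With an array left out, the lone array of a condition is assumed to vary like the other condition.

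Replicates share a number but no stated origin. Over the tested probes, replicate 1 minus replicate 2 in the miR-34a mimic had a correlation of -0.028 with the same difference in the negative control. With the replicate number as a block, which cannot move the CRYM difference, 0 of the 11 probes were called. Dim probes limit the DIO1, DIO2 and second THRB readings, which lay below detection on all arrays.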
